A study of Homo sapiens with 6 samples.

Results

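The KEAP1-NRF2 system is the main transcriptional switch of the antioxidant response, and 10 of its genes were described here across the libraries of the study. They were found by gene symbol among the 58735 genes of the count table. NFE2L2 encodes the activator NRF2, and NFE2L1 encodes the related factor NRF1. KEAP1 and CUL3 encode the adaptor and the scaffold of the ubiquitin ligase that degrades NRF2. SQSTM1 encodes p62, BACH1 a repressor of the same DNA sites, MAFF, MAFG and MAFK the small MAF partners, and NQO1 a quinone reductase that is a classical NRF2 target. Each of the 10 symbols matched 1 gene, and all 10 passed the filter on low counts that left 15754 genes for testing.

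The study compared A549 cells that overexpress IL17D with A549 cells that received the vector alone (control), and each group had 3 libraries. A549 is an established human lung adenocarcinoma cell line. The IL17D reading frame was delivered in a lentiviral vector with a human PGK promoter and a GFP reporter, and cells of both groups were grown in RPMI1640 medium with serum. It is not stated if replicates were cultured or transduced separately, so p-values measure the spread between these libraries, which may be technical. The comparison asks how IL-17D, a cytokine of the IL-17 family, changes gene expression in the tumor cells themselves.

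Under basal conditions, KEAP1 holds NRF2 in the cytoplasm and presents it to CUL3 for ubiquitination and proteasomal breakdown. Oxidants and electrophiles modify KEAP1, and p62 can compete with NRF2 for the same pocket, so that NRF2 accumulates, pairs with a small MAF protein and binds antioxidant response elements. BACH1 pairs with the same small MAF proteins and represses part of these genes. A549 cells are known to carry a KEAP1 mutation that weakens this brake, and NRF2 target genes are highly expressed in them. Much of the control of NRF2 acts on the protein, which RNA counts do not measure.

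Total counts ranged from 14319398 to 16521021 per library. IL17D itself, the check of the labels, had 18 to 34 counts in the control libraries and 26772 to 32155 counts in the IL17D-overexpressing libraries. Of the epithelial markers, KRT7, KRT8 and KRT18 were abundant. EPCAM had only 1.05 ± 0.375 CPM in control cells and 0.976 ± 0.122 CPM in IL17D-overexpressing cells (SD, n = 3 each). KRT19 and the 4 alveolar type II markers SFTPA1, SFTPB, SFTPC and NKX2-1 had at most 11 counts in any library. CDH1, which encodes E-cadherin, fell from 43.4 ± 2.65 to 35.7 ± 3.32 CPM (SD, n = 3 each; edgeR adjusted p = 0.0306). Of the leukocyte, fibroblast and endothelial markers, CD14 and COL1A1 passed the filter without a call, and the others, such as PTPRC and COL1A2, had at most 4 counts in any library. The mitochondrially encoded genes took 6.85% to 7.36% of the counts, with the highest shares in control replicate 3 (7.25%) and IL17D replicate 2 (7.36%).

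To show what NRF2 and its partners could read in these genes, the RefSeq windows from 250 bases before to 50 bases after each annotated start (build GRCh38.p14) were searched for the core of the antioxidant response element, TGACNNNGC, on both strands. Of the 10 genes, 9 had at least 1 window, and MAFK had none in the table. The motif was present at KEAP1 and MAFF, in 11.1% of the 18 windows of these genes, against 13.3% of all 35116 windows. Among the windows of 41 other NRF2 targets described further on, of which 29 had a window, it was present in 32.5%. The following stretches are shown because they are the matches at the regulators, together with the match at GPX2, a target that fell, and 1 of 3 matches at TXNRD1, a target that did not pass the test. Of the 12 targets with the motif, 11 were tested, and GPX2 was the 1 called. Capitals mark the motif, and all are written in the direction of the gene.
KEAP1, first match, chr19:10502807-10502835, minus strand: acttttattgTGACACGGCgggcgcccgg
KEAP1, second match, chr19:10502784-10502812, minus strand: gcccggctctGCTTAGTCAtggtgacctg
MAFF, chr22:38201862-38201890, plus strand: cttccaggggGCGGGGTCAtacgggggcg
GPX2, chr14:64942849-64942877, minus strand: acctgtttttGCTAAGTCAtcctggggat
TXNRD1, chr12:104286920-104286948, plus strand: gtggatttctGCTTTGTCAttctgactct
The second KEAP1 match, the MAFF match and those shown at GPX2 and TXNRD1 lie on the opposite strand, so the motif reads backward there. A match describes letters only and not binding, and a lack of matches in these short windows says nothing about elements farther away.

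Of the 10 genes, 1 rose, namely MAFK, and none fell when an adjusted p below 0.05 was required (edgeR quasi-likelihood F, Benjamini-Hochberg over all tested genes). Over all 15754 genes, the same rule called 1.58% in either direction, 0.673% higher and 0.908% lower. At an unadjusted p under 0.05, CUL3 joined MAFK on the higher side and still 0 of the 10 genes were lower, where 11.6% of all tested genes passed, 5.59% higher and 5.99% lower. DESeq2's Wald test called 0 of the 10 genes in either direction, and limma voom called MAFK. For 9 of the 10 genes the groups overlapped, and the exception was SQSTM1. Over all tested genes, the libraries of the groups did not overlap for 15.8% (7.48% higher with IL17D, 8.31% lower).

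**Figure D1:**
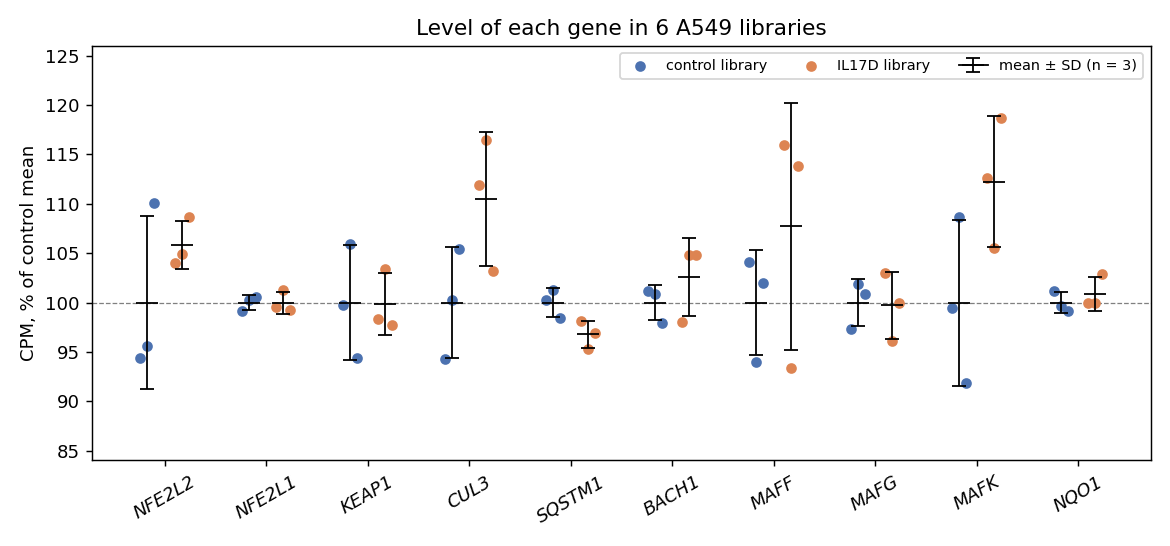
Level of each of the 10 genes in the 3 control (blue) and 3 IL17D-overexpressing (orange) libraries, as CPM in percent of the gene's control mean on an axis that does not start at 0, with the mean and SD of 3 libraries in black. NQO1 and NFE2L1 stay close to 100% in all 6 libraries, while MAFK and CUL3 lie mostly higher in IL17D-overexpressing cells with overlapping libraries.

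The activators did not pass the test. NFE2L2 (ENSG00000116044, GRCh38 chromosome 2, 177227595 to 177392697) had 87.1, 88.2 and 102 CPM (counts scaled to a common library size after TMM normalization) in control replicates 1, 2 and 3 and 96.0, 96.9 and 100.3 CPM in the IL17D-overexpressing replicates. The 3 IL17D-overexpressing libraries lay close together between the 2 lower control libraries and control replicate 3, which was the highest of all 6. The means were 92.3 ± 8.06 and 97.7 ± 2.27 CPM (SD, n = 3 each), a log2 difference of 0.08 with a standard error of 0.052 (edgeR adjusted p = 0.615) and a 95% interval of the difference from -1.74% to 13.8%. Without control replicates 1, 2 and 3 in turn, the log2 fold change was 0.041, 0.050 and 0.157 (edgeR adjusted p = 0.882, 0.852 and 0.128, between 0.128 and 0.882 among the 14 alternatives). The exons of NFE2L2 share 17.6% of their bases with those of AC019080.1, a sense-overlapping gene with at most 62 counts in any library.

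NFE2L1 (ENSG00000082641, chromosome 17, 48048329 to 48061487), whose product NRF1 resides in the endoplasmic reticulum and drives proteasome genes, had the smallest difference between group means. It had 356, 359.7 and 361 CPM in control replicates 1 to 3 and 357, 363 and 356 CPM in the IL17D-overexpressing replicates, so the groups covered nearly the same range. The 95% interval of its difference ran from -4.48% to 4.70%. The genes that process or stabilize NRF1 were also listed, among them NGLY1, which removes its sugar chains, and DDI2, the protease that cleaves it. None of the 6 listed genes passed the adjusted threshold, beside 1.58% of all tested genes. All 6 had positive log2 fold changes with a median of 0.108. Of these, 4 had an unadjusted p under 0.05 (NGLY1, DDI2, HCFC1 and FBXW7), where 5.59% of all tested genes were higher at that level.

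KEAP1 (ENSG00000079999, chromosome 19, 10486120 to 10503741), the sensor that binds NRF2, did not pass the test. It had 89.0, 94.6 and 84.3 CPM in the control replicates and 87.8, 92.4 and 87.2 CPM in the IL17D-overexpressing replicates. All 3 IL17D-overexpressing libraries fell inside the control range, and the difference had a 95% interval from -6.90% to 7.28% (adjusted p = 0.998 from the edgeR test). The genes of 7 other proteins that bind KEAP1 were listed, among them DPP3, PALB2 and PGAM5. None had an unadjusted p under 0.05, beside 11.6% of all tested genes, so for so few genes this count says little.

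CUL3 (ENSG00000036257, chromosome 2, 224470150 to 224585397), the scaffold on which KEAP1 is mounted together with the RING protein RBX1, had the second highest fold change. Its values were 85.0, 90.4 and 95.1 CPM in the control replicates and 101, 105 and 93.0 CPM in the IL17D-overexpressing replicates. IL17D replicate 3 lay below control replicate 3, and the other 2 IL17D-overexpressing libraries lay above every control library. From 90.2 ± 5.05 to 99.6 ± 6.11 CPM (SD, n = 3 each), the log2 difference was 0.15 with a standard error of 0.051 (edgeR unadjusted p = 0.00772 and adjusted p = 0.197) and with a 95% interval from 2.89% to 18.9%. The adjusted p stayed above 0.05 in every alternative tried, from 0.068 without control replicate 3 to 0.543 without control replicate 1. Another 15 genes were listed for the breakdown of NRF2 or its control. They include RBX1, the neddylation genes NEDD8 and UBE2M, and the beta-TrCP route with BTRC and GSK3B. None passed the adjusted threshold in either direction, beside 1.58% of all tested genes, and their median log2 fold change was -0.012. At an unadjusted p under 0.05, 1 was higher and 1 lower, beside 5.59% and 5.99% of all tested genes.

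SQSTM1 (ENSG00000161011, chromosome 5, 179806398 to 179838078) encodes p62, an autophagy receptor that binds KEAP1 and is itself an NRF2 target. It had 621, 627 and 609 CPM in the control replicates and 607, 590.1 and 599.8 CPM in the IL17D-overexpressing replicates. All 3 IL17D-overexpressing libraries lay below all 3 control libraries, by a narrow margin, which was also so for 8.31% of all tested genes. The means of 619 ± 9.11 and 599 ± 8.64 CPM (SD, n = 3 each) gave a log2 difference of -0.05 with a standard error of 0.030 (edgeR adjusted p = 0.601) and a 95% interval from -7.25% to 0.953%. MRNIP, a gene on the opposite strand with at most 638 counts, overlaps 20.7% of the exon bases of SQSTM1.

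Of 17 listed partners of p62 in selective autophagy, 1 fell and none rose at an adjusted p under 0.05, and at an unadjusted p under 0.05 there were 2 lower and 0 higher, beside 0.908% and 5.99% of all tested genes that were lower by these rules. The gene that fell was ULK1, the kinase that initiates autophagy, from 169 ± 2.23 to 153 ± 1.43 CPM (SD, n = 3 each; log2 fold change -0.15, adjusted p = 0.0438 from the edgeR test). The ULK1 call was near the threshold and was not followed through the alternatives. The LC3 gene MAP1LC3B and the receptor OPTN had log2 fold changes of 0.04 and -0.03 and did not pass.

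BACH1 (ENSG00000156273, chromosome 21, 29194071 to 29630751), the heme-sensitive repressor of HMOX1 and other target genes, had the lowest level of the 10 genes. It had 19.1, 19.0 and 18.5 CPM in the control replicates and 18.5, 19.8 and 19.8 CPM in the IL17D-overexpressing replicates. The groups overlapped, and at 275 to 325 counts per library the 95% interval of the difference was wide, from -9.91% to 16.7% (adjusted p = 0.936 from the edgeR test). The other CNC factor with a similar role, BACH2, had 1.18 ± 0.382 CPM in control cells and 0.796 ± 0.286 CPM in IL17D-overexpressing cells (SD, n = 3 each), and NFE2 had at most 5 counts in any library and was not tested. This list also holds NFE2L3 and cofactors such as CREBBP and EP300. None of its 8 tested genes passed the adjusted threshold, beside 1.58% of all tested genes, and their median log2 fold change was -0.0313.

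The small MAF proteins lack a transactivation domain and serve as obligate partners for NRF2, NRF1 and BACH1. MAFK (ENSG00000198517, chromosome 7, 1530714 to 1543043) had 323, 353 and 298 CPM in the control replicates and 365, 342 and 385 CPM in the IL17D-overexpressing replicates. IL17D replicate 2 lay below control replicate 2, so the groups overlapped. MAFK rose from 325 ± 27.3 to 364 ± 21.5 CPM (SD, n = 3 each), a log2 difference of 0.17 with a standard error of 0.044 (edgeR adjusted p = 0.0395) and with a 95% interval from 5.56% to 19.4%.

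This call was close to the threshold and was lost in 6 alternatives. With total counts in place of TMM the adjusted p was 0.0548, in DESeq2's Wald test it was 0.496, and it was 0.112, 0.205, 0.129 and 0.343 in the edgeR test without control replicate 1, control replicate 3, IL17D replicate 1 and IL17D replicate 3. Over all alternatives it ran from 1.6e-05 to 0.496, and the log2 fold change stayed positive, from 0.11 to 0.23. Within each group, MAFK was lowest in the library with the highest mitochondrial share. With that share as a covariate, a fit chosen after the data were seen, the log2 fold change was 0.199 (adjusted p = 1.6e-05 from the edgeR test). The opposite-strand gene TMEM184A overlaps 18.1% of the exon bases of MAFK, and it went from 44.8 ± 3.27 to 49.5 ± 0.696 CPM (SD, n = 3 each; log2 fold change 0.14, adjusted p = 0.367 from the edgeR test). Its part in the MAFK counts was not tested.

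The other small MAF genes did not pass. MAFF (ENSG00000185022, chromosome 22, 38200767 to 38216511), which is inducible by stress in many cell types, had 27.9, 25.2 and 27.3 CPM in the control replicates and 31.1, 25.0 and 30.5 CPM in the IL17D-overexpressing replicates. Its lowest library and its highest library were both IL17D-overexpressing, and the 95% interval of the difference ran from -4.66% to 21.2% (adjusted p = 0.712 from the edgeR test). MAFG (ENSG00000197063, chromosome 17, 81918270 to 81927714), the best known NRF2 partner, had 175, 183 and 181 CPM in the control replicates and 185, 173 and 179 CPM in the IL17D-overexpressing replicates, with an interval from -5.70% to 5.45%. Here too the extremes on both sides were IL17D-overexpressing libraries.

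NQO1 (ENSG00000181019, chromosome 16, 69706996 to 69726951), a widely used read-out of NRF2 activity, did not pass the test in spite of the highest precision among the 10 genes. It had 1498, 1475 and 1469 CPM in the control replicates and 1479, 1479.5 and 1523 CPM in the IL17D-overexpressing replicates. Of the IL17D-overexpressing libraries, 2 lay inside the control range and 1 above it. The means were 1481 ± 15.4 and 1494 ± 25.1 CPM (SD, n = 3 each), a log2 difference of 0.01 with a standard error of 0.026 (edgeR adjusted p = 0.915). The 95% interval of the difference, from -2.78% to 4.68%, was the narrowest among the 10 genes, and NQO1 also had the most counts, at 21343 to 24347 per library. An antisense gene shares 17.7% of the exon bases of NQO1 and had 0 counts in all 6 libraries. The counting tool and strand setting are not given, so these 0 counts do not show how reads in the shared bases were assigned. The genes with the most similar pattern over the 6 libraries, out of 9740 compared, were ACTN1, RPL6 and AHSA2P, with a root mean square difference from NQO1 of 0.0093, 0.0097 and 0.010 in centered log2 CPM. Because they were chosen by this pattern, their log2 fold changes of 0.013, 0.014 and 0.020 were bound to be small like that of NQO1.

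For a rough order of levels between genes, CPM was divided by the length of all annotated exons in kilobases. Transcripts can be shorter than that length, to a different degree for each gene, so the order depends partly on the annotation. In control cells, NQO1 stood at the top with 455 ± 4.74 CPM per kb (SD, n = 3). By the mean over all 6 libraries it was at rank 53 of all tested genes. Next in control cells came SQSTM1 (80.9 ± 1.19), MAFK (72.8 ± 6.12), NFE2L1 (61.6 ± 0.458) and MAFG (34.4 ± 0.820) on the same scale. Below them came KEAP1 (23.7 ± 1.38), NFE2L2 (15.4 ± 1.35), CUL3 (7.84 ± 0.439), MAFF (4.77 ± 0.254) and BACH1 (2.44 ± 0.0434), also as CPM per kb in control cells. No neighbors in this order overlapped among the control libraries, although the lowest SQSTM1 library (79.6) and the highest MAFK library (79.1) nearly met.

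**Figure D2:**
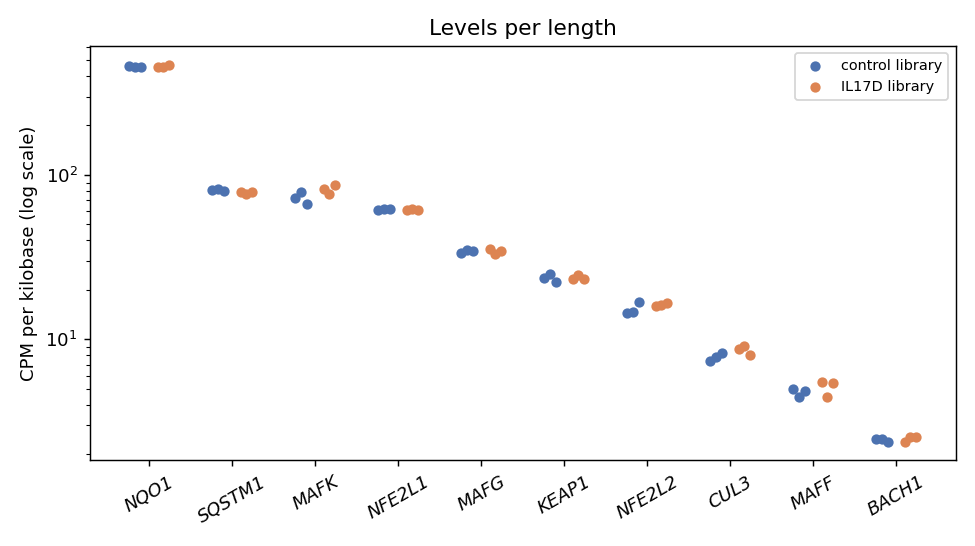
Levels per length of the 10 genes in CPM per kilobase on a log axis, ordered by the control mean, with 1 point per library (control in blue, IL17D-overexpressing in orange). NQO1 lies 5.62 times above the next gene in control cells, and MAFK and SQSTM1 exchange places in IL17D-overexpressing cells with overlapping libraries.

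In IL17D-overexpressing cells the order was the same except that MAFK (81.7 ± 4.81 CPM per kb) and SQSTM1 (78.3 ± 1.13 CPM per kb; SD, n = 3 each) exchanged places, and their libraries overlapped. The ratios between opposing regulators overlapped as well. The ratio of NFE2L2 to KEAP1 per length was 0.653 ± 0.0922 in control cells and 0.690 ± 0.0317 in IL17D-overexpressing cells (SD, n = 3 each), with every IL17D-overexpressing library inside the control range. The ratio of NFE2L2 to BACH1 was 6.33 ± 0.671 and 6.53 ± 0.190, again inside the control range. The small MAF genes summed to 112 ± 6.17 CPM per kb in control cells and 121 ± 6.15 in IL17D-overexpressing cells with overlapping libraries, and MAFK made up 65.0% ± 1.95 and 67.4% ± 0.912 of that sum. No test was made on these sums and ratios, which also depend on the annotated lengths.

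Other NRF2 target genes were listed for comparison with NQO1. Of 41 listed targets, 40 were tested, of which 12 fell and none rose at an adjusted p under 0.05, beside 0.908% of all tested genes that fell by the same rule. At an unadjusted p under 0.05, 23 were lower and 1 was higher, beside 5.99% and 5.59% of all tested genes. The median log2 fold change of the targets was -0.0916, against -0.000439 over all tested genes. Values were negative for 36 of the 40 targets and for 7896 of the 15754 tested genes. The list was written with earlier results on these libraries known, among them the fall of AKR1C2, so it is not independent evidence of a direction. Without the 4 aldo-keto reductase genes, 8 of 36 fell and the median was -0.0873.

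Of the 11 tested detoxification enzymes, 6 fell, and 4 of these 6 were aldo-keto reductases. AKR1B10, a retinal and aldehyde reductase, fell from 2969 ± 35.9 to 2523 ± 41.1 CPM (SD, n = 3 each), a log2 fold change of -0.24 (adjusted p = 3.9e-08 from the edgeR test). AKR1C1, AKR1C2 and AKR1C3, steroid and carbonyl reductases of closely related sequence whose reads are hard to assign, also fell, with log2 fold changes of -0.30, -0.29 and -0.27. The aldehyde dehydrogenase ALDH3A1 fell with a log2 difference of -0.22 and a standard error of 0.030 (edgeR adjusted p = 1.1e-05).

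Among the glutathione and thioredoxin genes, 1 of 9 fell, the glutathione peroxidase GPX2, from 404 ± 9.26 to 349 ± 2.11 CPM (SD, n = 3 each; log2 fold change -0.21, adjusted p = 7.5e-05 from the edgeR test). GCLC and GCLM, the subunits of the rate-limiting enzyme of glutathione synthesis, had -0.08 and -0.13 (adjusted p = 0.286 and 0.121 from the edgeR test), and TXNRD1, thioredoxin reductase, had 0.01. Among the genes that supply NADPH, TKT, the transketolase of the pentose phosphate pathway, fell from 2064 ± 57.5 to 1893 ± 20.8 CPM (SD, n = 3 each; log2 fold change -0.12, edgeR adjusted p = 0.0049). In the heme and iron group, the ferritin light chain gene FTL fell (-0.11, adjusted p = 0.0165 from the edgeR test) and HMOX1 had -0.10 (adjusted p = 0.311). Of 10 transporters and other targets, the efflux pumps ABCC3 and ABCC1 fell, with -0.25 and -0.13.

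**Figure D3:**
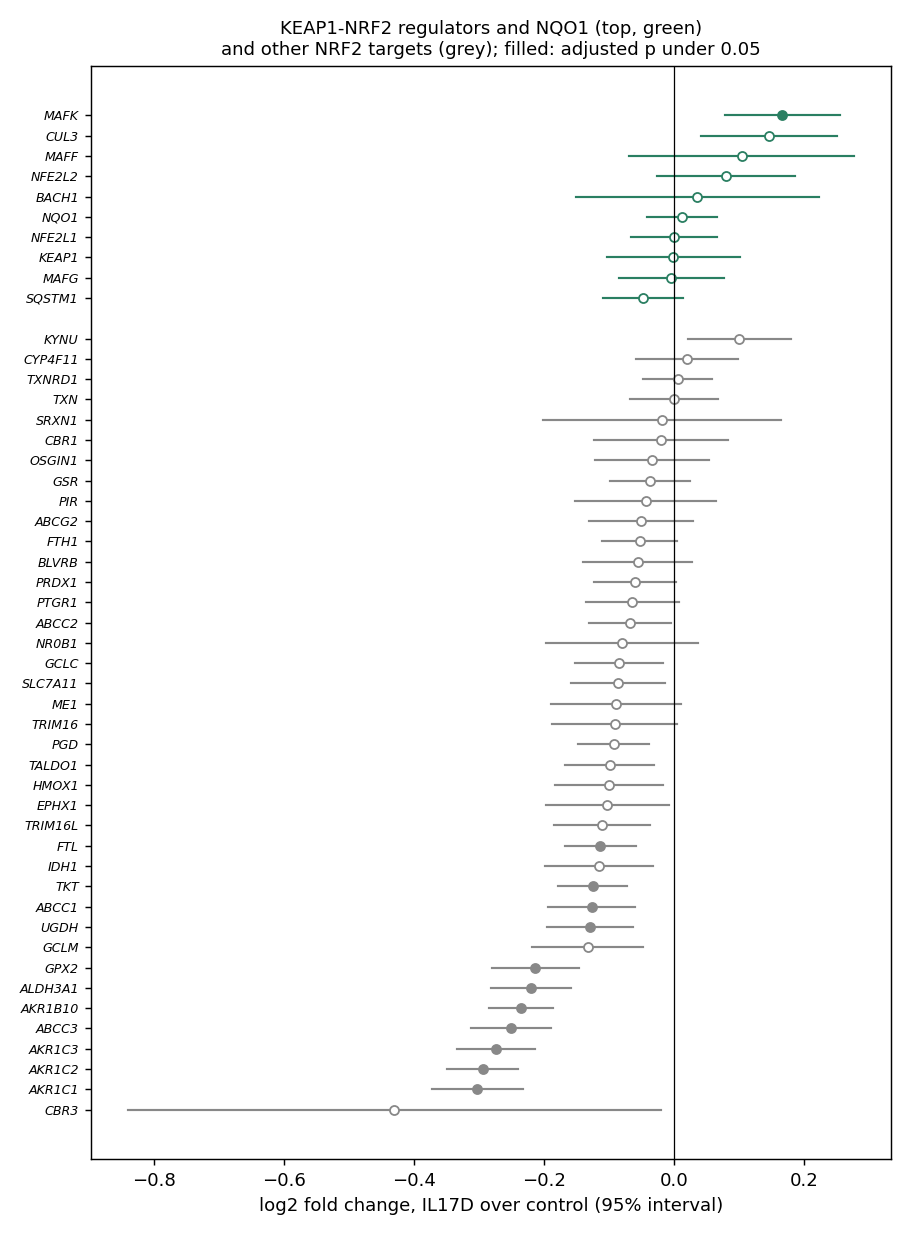
Log2 fold change of IL17D-overexpressing over control cells with its 95% interval from edgeR, for the 10 genes (green, top) and the tested NRF2 targets except 1 (grey), each ordered by value, with filled circles for an adjusted p under 0.05. MAFK is the 1 filled green circle, all filled grey circles lie below 0, and the interval of CBR3, which had under 10 CPM, is the widest.

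The difference between NQO1 and the other targets was not tested, and some of these, such as TXNRD1, also had values near 0. Changes in all of these genes are relative to the bulk of RNA in a library.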

How the data were processed

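RNA-seq counts of 6 libraries were analysed, 3 of A549 cells with IL17D and 3 with the empty vector, grouped by the sample titles. The authors deposited 1 table of raw counts per gene without normalization, and 0 of its sample columns were left out. The submitters' processing notes name Bowtie2 and hg38, and the counting tool and its strand setting are not given in the sources used here. Gene coordinates and lengths of the 10 genes equal those of GENCODE 29. Labels and methods disagree on the Illumina sequencer.

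Genes were filtered by filterByExpr, scaled by TMM and compared by the quasi-likelihood test of edgeR 4.0.16 in R 4.3.3 without covariates, with Benjamini-Hochberg adjustment over 15754 genes. Standard errors are the coefficient divided by the root of F, and 95% intervals use the t distribution of the fit. DESeq2 1.42.0 and limma 3.58.1 (voom) were alternatives, beside other scalings and filters, a replicate block and leaving out each library. Steps were tested on simulated data. Levels per length are CPM divided by the listed gene length. Libraries of a group differed by more than counting noise (chi-square over its degrees of freedom between 2.19 and 3.36), so none was counted as 1 library deposited again, which leaves repeat preparations possible. The 10 genes and all lists were chosen with earlier results of these data known. Named genes are the 10, IL17D, up to 5 called genes per list and direction by smallest p, and the 3 genes nearest to NQO1 among those with at least 10 CPM. The values of 1 target are not reported here, although it is counted in its list. Other genes named for context were chosen after their values were seen.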

Additional observations from a re-analysis of the deposited data

How the results depend on the processing

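Depth limits mainly BACH1 and MAFF, which have the fewest counts and the widest intervals of the 10 genes. Of the 10 genes, the number called higher was 1, and it was 0 with total counts, 0 in DESeq2's Wald test and 0 to 1 when single libraries were left out. The number called lower was 0 in all 14 alternatives. The targets called lower numbered 12, in a range from 9 to 16, and their median log2 fold change was -0.0916, between -0.097 and -0.0872 without single libraries. Values near 0 changed sign. KEAP1 had 0.00059 with DESeq2's size factors, 0.00029 in DESeq2's Wald test, 0.0018 in limma voom, 0.0035 with the mitochondrial share as a covariate, and -0.0406 to 0.0417 without single libraries. MAFG had 0.0032 with that covariate and -0.0277 to 0.0222 without single libraries. NFE2L1 had -0.0030 with total counts, -0.0022 on all genes with at least 1 count, -0.0043 with that covariate and -6.3e-05 with the replicate block, and -0.0090 to 0.0070 without single libraries. NQO1 had -1.4e-05 to 0.0226 without single libraries. None of these passed the threshold in any alternative. Over all genes, 249 were called, against 421 with the covariate and 145 to 267 without single libraries. Other scalings shifted the median of all genes by at most 0.0030 in size. Same-numbered libraries did not deviate together (correlations of 0.0692, -0.11 and -0.0667), so the numbers were not taken as pairs. Libraries of unlike number had correlations from -0.145 to 0.199. The highest was between control replicate 3 and IL17D replicate 2, which also had the highest mitochondrial shares. With the replicate block, 272 genes were called, 1 of the 10 among them, namely MAFK (adjusted p = 0.0084 from edgeR's test, in a range from 1.6e-05 to 0.496), and no call among the 10 changed.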
